A study of Mus musculus with 7 samples.

Results

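The 10 Eph receptor and ephrin genes described here were followed in the inner cell mass (ICM) of the mouse blastocyst, with and without induction of cRAF, a kinase upstream of ERK. They were the receptors Epha1, Epha2, Epha4, Ephb2, Ephb3 and Ephb4 and the ligands Efna1, Efna4, Efnb1 and Efnb2, found by symbol among the 52636 Ensembl genes of the count table. They are 10 of the 22 Eph and ephrin genes of the mouse, and all 10 had enough counts to be tested. The embryos had the genotype Sox2Cre;CRAFR26. They carried a cRAF construct that is induced by tamoxifen, introduced through embryonic stem cells of clone 4 or clone 8, and Sox2Cre is a Cre recombinase driven from the Sox2 gene, which is active in the epiblast. Every embryo was collected at embryonic day 2.5 and then kept for 24 h in 250 nM PD173074, which inhibits FGF receptors and was thus common to both groups. The tamoxifen group (time label 4 h) received 250 nM 4-hydroxytamoxifen for 4 h and the vehicle group (time label 0 h) received ethanol. Immunosurgery took off the trophectoderm, and 10 ICMs were pooled per library, of which 2 ng of RNA were used. The samples are labelled as embryonic day 3.5, and 1 more vehicle sample had been discarded after quality control, per the labels. There were 3 vehicle libraries, named clone4_1, clone4_2 and clone8_1, and 4 tamoxifen libraries, named clone4_1, clone4_2, clone8_1 and clone8_2. Libraries of one group are separate pools, and p-values measure the spread between pools.

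Eph receptors form the largest family of receptor tyrosine kinases, and their ligands, the ephrins, are themselves held on the surface of neighbouring cells. A-type ephrins are anchored to the membrane by a lipid and B-type ephrins span it, so binding needs cell contact and signals can pass into the receptor cell (forward) and into the ephrin cell (reverse). A-type receptors mostly bind A-type ephrins and B-type receptors mostly B-type ephrins, with EphA4 as a receptor that binds both. The family is known for repulsion, cell sorting and tissue boundaries. Epha2 is known from cultured cells as a gene switched on by the Ras-ERK pathway, and activated Eph receptors can in turn dampen ERK.

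Total counts per library ran from 22981498 to 42294719. The samples are labelled epiblast, and the naive epiblast markers were present, with a summed level of 1664 to 2198 CPM for 10 genes (CPM are counts scaled to the total of a library and its TMM factor). Primitive endoderm markers were present too, at 844 to 1147 CPM for 10 genes, with Sox7 at 0 to 12 counts per library. The 10 trophectoderm markers summed to 6541 to 11220 CPM, above the naive epiblast sum in every library, although the trophectoderm had been removed. Such sums depend on which genes are listed and do not measure the amounts of the cell types. Vehicle clone8_1, the only vehicle library of clone 8, stood apart: for protein-coding genes whose typical transcript is shorter than 1000 nt, 1164 in all, it had a median deviation of -1.29 (log2) from each gene's median over the libraries, against 0 for genes of 1000 to under 2000 nt. That 0 is a coarse measure, because each gene's median library has a deviation of 0 by construction. The typical transcripts of the 10 Eph and ephrin genes are 1480 to 4970 nt long. Efna1 (1480 nt) and Efna4 (1599 nt) are the shortest, and whether length affected their values in vehicle clone8_1 was not tested.

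Levels of different genes were compared per length, as RPKM (CPM per kilobase of the typical transcript). Epha4 had the highest mean, 11.7 ± 3.02 RPKM (SD, n = 7), with values from 8.84 to 17.4. Efna1 followed with 10.9 ± 8.56 RPKM (SD, n = 7) and the widest range, 4.01 to 24.1. The mean levels of Efnb2 (7.80 RPKM), Efna4 (6.54 RPKM) and Ephb3 (5.62 RPKM) came next. Efnb1 had 3.60 RPKM, Ephb4 3.14 RPKM and Epha1 2.65 RPKM on average. Ephb2 at 1.19 ± 0.428 RPKM (SD, n = 7) and Epha2 at 0.929 ± 0.295 RPKM (SD, n = 7) were lowest. The ranges of every 2 neighbours in this order overlapped, so the order of neighbours is not resolved, whereas the range of Epha4 lay wholly above those of Ephb4, Epha1, Ephb2 and Epha2. With the longest transcript as the length, Efna1 and Epha4 traded places, as did Ephb2 and Epha2. Among receptors, Epha4 thus had the highest mean per length, although its range overlapped that of Ephb3 (3.85 to 9.12 RPKM).

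**Figure D1:**
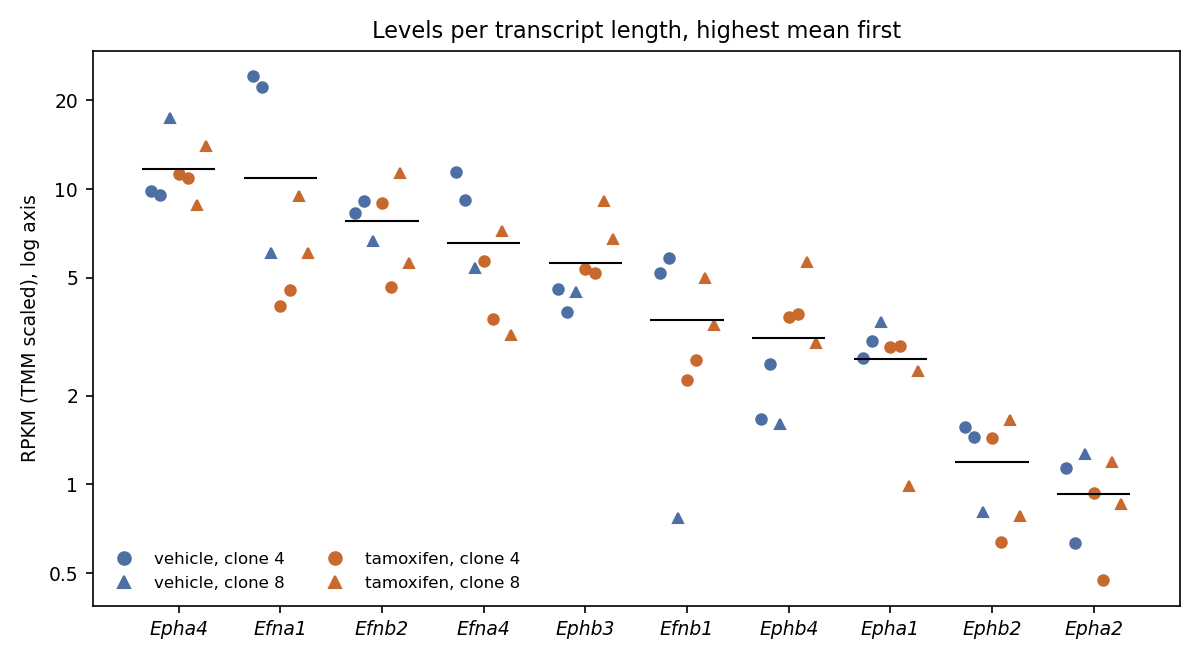
RPKM of the 10 genes in each of the 7 libraries on a log axis, ordered by the mean (black line). Colours mark the group and shapes the clone. Epha4 (mean 11.7 RPKM) and Efna1 (mean 10.9 RPKM) lead, Efna1 has the widest range, and Ephb2 and Epha2 lie lowest.

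With 4 h of tamoxifen, the B-type receptors Ephb4 and Ephb3 had higher mean levels and the A-type ligands Efna1 and Efna4 lower mean levels than with vehicle. For both ligands the groups overlapped. In clone 8 the ratio of the tamoxifen mean to the single vehicle library was 1.28 for Efna1 and 0.961 for Efna4. None of the 10 genes had an adjusted p under 0.05 among 16248 genes tested with the quasi-likelihood method of edgeR. In that test 0% of all genes passed, and the smallest adjusted p was 0.794. At an unadjusted p under 0.05 there were 4 of the 10 genes, against 5.97% of all genes (2.69% higher and 3.28% lower with tamoxifen). The 10 genes were chosen with earlier results of these data known. Shares set beside counts of them, here and below, are thus a description and do not test the family. Of the 7 other Eph and ephrin genes tested, 0 had an unadjusted p under 0.05 (edgeR). The CPM ranges of the groups did not overlap for 2 of the 10, Ephb3 and Ephb4, both higher with tamoxifen; over all genes this share was 8.45% (3.71% higher, 4.74% lower). The log2 fold change was positive for 2 of the 6 receptors and negative for the 4 others and for all 4 ligands in this fit. Its median was -0.20 over the 10 genes and 0.02 over all genes tested. In bulk libraries such as these, fewer cells of a type and less RNA per cell cannot be told apart.

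**Figure D2:**
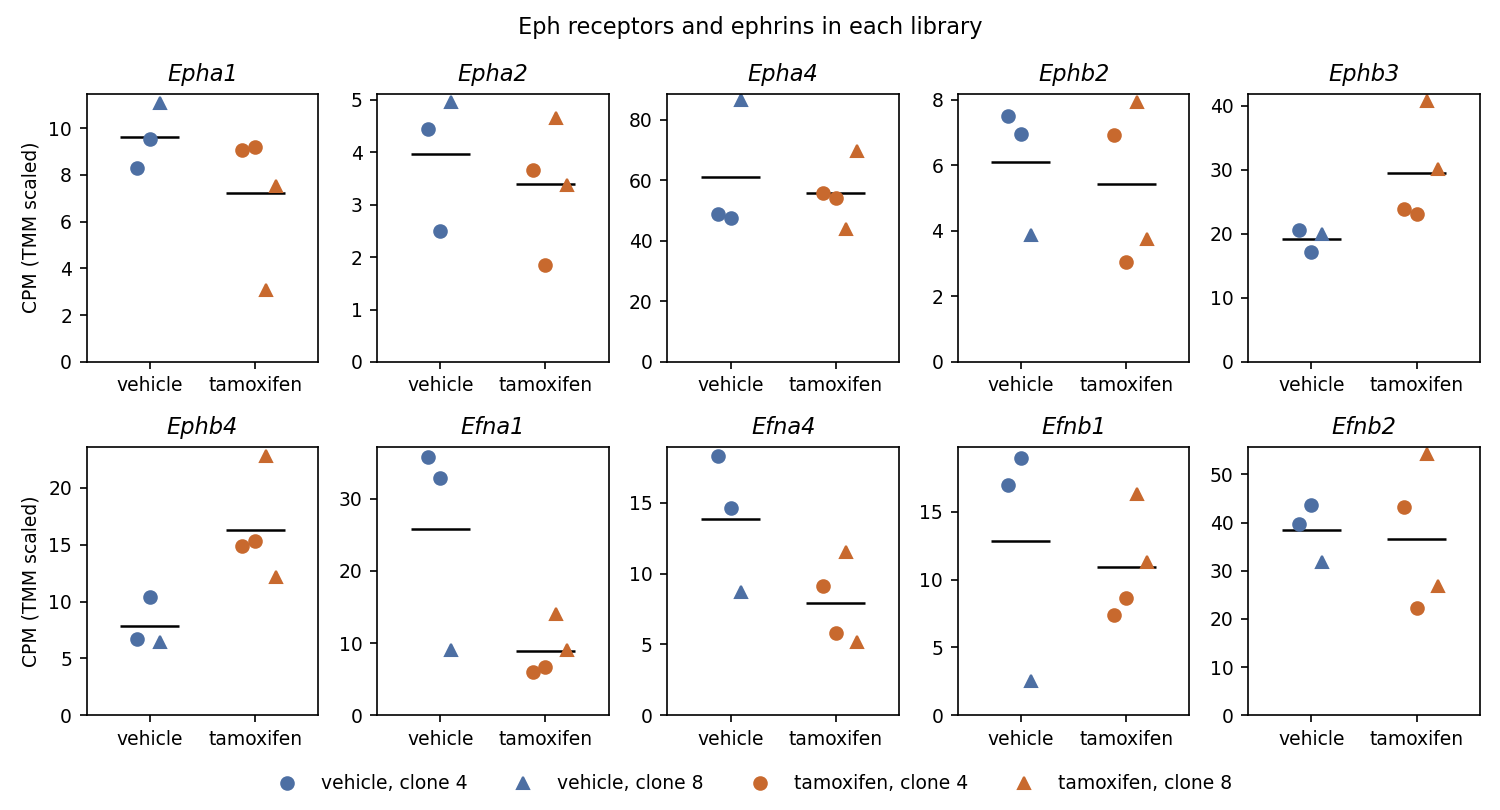
CPM of each gene (y axis from 0) by group, 1 point per library, circles for clone 4 and triangles for clone 8, with the group mean as a line. The groups are apart for Ephb3 and Ephb4. For Efna1, Efna4 and Efnb1 the clone 4 vehicle libraries lie high and the clone 8 vehicle library low.

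Ephb4 encodes a B-type receptor known above all as the venous partner of ephrin-B2. It (ENSMUSG00000029710, chromosome 5, 137350109 to 137378669, plus strand) had 6.72, 10.4 and 6.45 CPM in vehicle clone4_1, clone4_2 and clone8_1, and 14.9, 15.3, 22.8 and 12.2 CPM in tamoxifen clone4_1, clone4_2, clone8_1 and clone8_2. Every tamoxifen library lay above every vehicle library. The means were 7.84 ± 2.2 CPM (SD, n = 3) and 16.3 ± 4.55 CPM (SD, n = 4), a 2.08-fold difference. On the log2 scale the difference was 1.06 ± 0.30 (SE) with an unadjusted p = 0.00582 and an adjusted p = 0.794 in edgeR. Both clones showed the direction: the means were 8.54 and 15.1 CPM in clone 4, and in clone 8 the single vehicle library had 6.45 CPM against a tamoxifen mean of 17.5 CPM. For the fit on all libraries, Ephb4 was the only one of the 10 genes with an unadjusted p under 0.05 in all 17 alternatives run, and its adjusted p ranged from 0.2 to 0.961 over them. Within clone 4 the log2 difference was 0.82 ± 0.33 (SE), with an unadjusted p = 0.0405 in edgeR. There it was 0.54 without vehicle clone4_1 (unadjusted p = 0.116, edgeR), and the unadjusted p was also above 0.05 without tamoxifen clone4_1 (0.126) or tamoxifen clone4_2 (0.147).

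Ephb3, a B-type receptor best known with Ephb2 for positioning cells in the intestinal crypt, was also higher with tamoxifen, by less. It (ENSMUSG00000005958, chromosome 16, 21204755 to 21223305, plus strand) had 20.6, 17.2 and 19.97 CPM in vehicle clone4_1, clone4_2 and clone8_1. The tamoxifen values were 23.9, 23.2, 40.7 and 30.2 CPM in clone4_1, clone4_2, clone8_1 and clone8_2. The groups did not overlap, and the clone 8 tamoxifen libraries were the highest. The means were 19.2 ± 1.80 CPM (SD, n = 3) and 29.5 ± 8.13 CPM (SD, n = 4), a 1.53-fold difference. On the log2 scale it was 0.62 ± 0.24 (SE), with an unadjusted p = 0.0291 and an adjusted p = 0.794 in edgeR. Within clone 4 it was 0.31 ± 0.24 (SE; unadjusted p = 0.234, edgeR). The unadjusted p over all libraries was under 0.05 in 11 of 17 alternatives. It was above 0.05 without vehicle clone4_1 (0.0519), vehicle clone4_2 (0.0897), tamoxifen clone8_1 (0.0667, log2 value 0.42) or tamoxifen clone8_2 (0.0541). The same held without both clone8_1 libraries (0.0828) and with the replicate number as a block (0.0827, all edgeR).

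The other 4 receptors had overlapping groups. Epha4 (ENSMUSG00000026235, chromosome 1, 77367185 to 77515088, minus strand) encodes a receptor of both ephrin types. It had 49.0, 47.6 and 86.5 CPM in vehicle clone4_1, clone4_2 and clone8_1. In tamoxifen clone4_1, clone4_2, clone8_1 and clone8_2 it had 55.9, 54.2, 43.9 and 69.5 CPM. The highest value was in vehicle clone8_1 and the lowest in tamoxifen clone8_1. Its log2 fold change was -0.13 ± 0.25 (SE; adjusted p = 0.918, edgeR), and without vehicle clone8_1 it was 0.20. Epha2 (ENSMUSG00000006445, chromosome 4, 141301240 to 141329384, plus strand) had 4.44, 2.49 and 4.97 CPM in the vehicle libraries and 3.67, 1.85, 4.66 and 3.37 CPM in the tamoxifen libraries, in the same orders. Each group thus held values from under 3 to over 4 CPM, and the log2 fold change of Epha2 was -0.23 ± 0.43 (SE; adjusted p = 0.913, edgeR), and -0.04 without vehicle clone8_1. Both genes are counted among targets or feedback genes of ERK elsewhere. Beside them, 8 further genes listed as ERK targets or feedback genes were summed. The sum was 249 to 299 CPM in vehicle and 376 to 409 CPM in tamoxifen libraries. Of the 8, 7 had a positive log2 fold change. Spry2 was the 1 with an unadjusted p under 0.05, beside 2.69% of all genes higher at that threshold. The groups did not overlap for 1 of the 8, which was higher, beside 3.71% of all genes. Within clone 4, 3 of the 8 were higher at an unadjusted p under 0.05, beside 3.54% of all genes. None had an adjusted p under 0.05 over all libraries (edgeR).

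Epha1 (ENSMUSG00000029859, chromosome 6, 42358487 to 42373268, minus strand), the founding member of the family, had 8.31, 9.52 and 11.1 CPM in vehicle clone4_1, clone4_2 and clone8_1. In tamoxifen clone4_1, clone4_2, clone8_1 and clone8_2 it had 9.06, 9.18, 3.07 and 7.52 CPM. Tamoxifen clone8_1, with 85 counts, was the lowest by far, and the clone 4 libraries of both groups lay close together. The log2 fold change of Epha1 was -0.42 ± 0.37 (SE; adjusted p = 0.835, edgeR) over all libraries and 0.02 ± 0.31 (SE) within clone 4. Its interval overlaps Zyx by 1727 bp on the other strand, and without a known strand setting reads there cannot be assigned. Ephb2 (ENSMUSG00000028664, chromosome 4, 136647539 to 136835988, minus strand) ranged from 3.87 to 7.51 CPM in vehicle and from 3.06 to 7.94 CPM in tamoxifen libraries, and its log2 fold change was -0.17 ± 0.42 (SE; adjusted p = 0.939, edgeR), or -0.42 without vehicle clone8_1. In vehicle clone4_1, clone4_2 and clone8_1 its values were 7.51, 6.94 and 3.87 CPM.

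**Figure D3:**
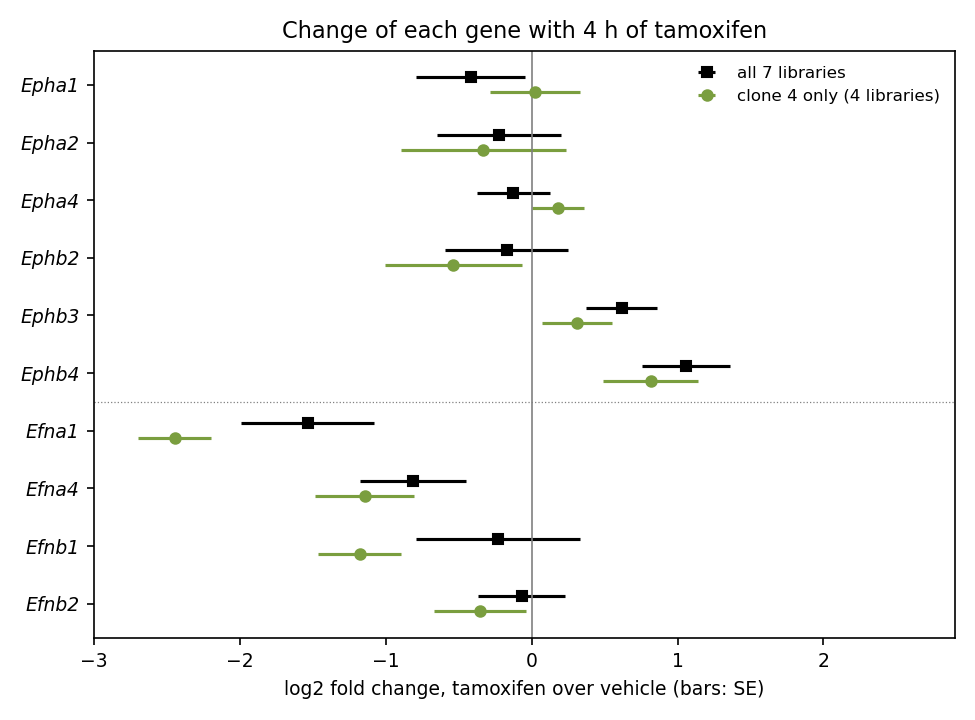
Log2 fold change of each gene, tamoxifen over vehicle, with its SE, from the fit on all 7 libraries (squares) and within clone 4 (circles); receptors stand above the dotted line and ligands below. Ephb4 and Ephb3 lie above 0 and Efna1 and Efna4 below in both fits. The difference between the fits is widest for Efnb1 (-0.23 against -1.18) and Efna1 (-1.54 against -2.45).

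Among the ligands, Efna1 differed most. Ephrin-A1 is the best known ligand of EphA2. Its gene (ENSMUSG00000027954, chromosome 3, 89271733 to 89281142, minus strand) had 35.7, 32.9 and 9.01 CPM in vehicle clone4_1, clone4_2 and clone8_1, and 5.94, 6.72, 14.0 and 9.0 CPM in tamoxifen clone4_1, clone4_2, clone8_1 and clone8_2. The clone 4 vehicle libraries were far above all others, and vehicle clone8_1 lay among the tamoxifen libraries. The means were 25.9 ± 14.7 CPM (SD, n = 3) and 8.92 ± 3.63 CPM (SD, n = 4), 2.9-fold lower with tamoxifen. The fitted log2 value was -1.54 ± 0.46 (SE), for which edgeR gave an unadjusted p = 0.00735 and an adjusted p = 0.794. Without vehicle clone8_1 it was -1.95 (unadjusted p = 0.00019, adjusted p = 0.589, edgeR). Over the 17 alternatives its adjusted p ranged from 0.0822 to 0.961 and its log2 fold change from -2.25 to -1.24.

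Within clone 4 the mean of Efna1 was 34.3 CPM with vehicle and 6.33 CPM with tamoxifen, 5.42-fold lower, from 156 to 1441 counts over all libraries. The log2 fold change there was -2.45 ± 0.25 (SE), and Efna1 ranked 2 by p among 16060 genes (unadjusted p = 2.51e-05, adjusted p = 0.201, edgeR). In clone 8 the tamoxifen mean of Efna1 was 11.5 CPM against 9.01 CPM in the single vehicle library, a ratio of 1.28 with no test. Across the 10 genes, the fit within clone 4 gave 4 with an unadjusted p under 0.05, 1 higher (Ephb4) and 3 lower (Efna1, Efna4 and Efnb1). The shares over all genes in that fit were 7.87% (3.54% higher, 4.33% lower), and 0% passed an adjusted p of 0.05. The median log2 fold change within clone 4 was -0.34 over the 10 genes and -0.01 over all genes. This count was 2 without tamoxifen clone4_2.

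Efna4, the other A-type ligand of the set, also had its highest values in the clone 4 vehicle libraries, with smaller differences. It (ENSMUSG00000028040, chromosome 3, 89333390 to 89338028, minus strand) had 18.3, 14.7 and 8.67 CPM in vehicle clone4_1, clone4_2 and clone8_1 and 9.13, 5.82, 11.5 and 5.14 CPM in tamoxifen clone4_1, clone4_2, clone8_1 and clone8_2. Vehicle clone8_1 lay within the tamoxifen range, and tamoxifen clone8_2 was lowest, where Efna1 was lowest in tamoxifen clone4_1. The log2 fold change of Efna4 was -0.81 ± 0.36 (SE; unadjusted p = 0.0493, adjusted p = 0.794, edgeR) over all libraries and -1.14 ± 0.34 (SE; unadjusted p = 0.0118, edgeR) within clone 4. The unadjusted p for all libraries was under 0.05 in 9 of 17 alternatives. Without vehicle clone8_1 the log2 value was -1.07 (unadjusted p = 0.0135, edgeR). Within clone 4 it was -0.86 (unadjusted p = 0.0973, edgeR) without tamoxifen clone4_2. An antisense gene, 4731419I09Rik, overlaps Efna4 by 179 bp.

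Efna1 and Efna4 are neighbours in a cluster with Efna3 on chromosome 3, all on the minus strand within 66.3 kb. The gap is 32.8 kb from Efna1 to Efna3 and 10.4 kb from Efna3 to Efna4. Efna3, which is not among the 10 genes, was low, from 0.948 to 6.53 CPM, with a log2 fold change of 0.18 ± 0.65 (SE) over all libraries and -0.88 ± 0.72 (SE) within clone 4. Within 50 kb of the cluster on either side, 13 genes were tested, and of these Efna1 and Efna4 were the 2 to which edgeR gave an unadjusted p under 0.05. Slc50a1, a sugar transporter gene that follows Efna1 directly, had a log2 fold change of -0.29 ± 0.52 (SE) over all libraries and -0.85 ± 0.52 (SE; unadjusted p = 0.148, edgeR) within clone 4. Adam15, a membrane metalloprotease gene just upstream of Efna4, had 88.6 CPM with vehicle and 92.8 CPM with tamoxifen and a log2 fold change of 0.07 ± 0.21 (SE). Of the 13 genes, which include Efna1, Efna3 and Efna4, 6 had a negative log2 fold change over all libraries and 7 a positive one. Within clone 4 the run of tested genes from Dpm3 (-0.41) to Efna4 was negative throughout. The next tested genes on either side, Krtcap2 (0.05) and Adam15 (0.28), were positive, and both signs occurred farther out. A change shared across the cluster was not tested.

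**Figure D4:**
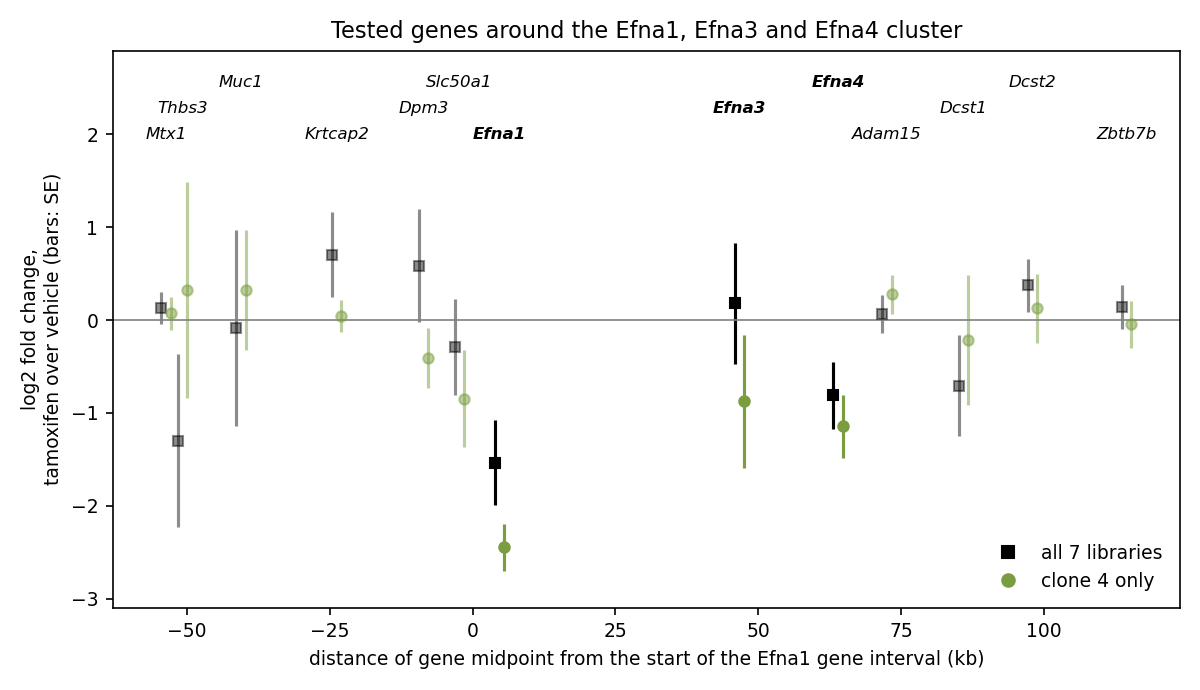
Log2 fold change with its SE for the 13 tested genes around the ephrin cluster on chromosome 3, placed by the distance of their midpoint from the start of the Efna1 interval (kb). Squares are all 7 libraries, circles clone 4, and the ephrin genes are drawn in full colour. Efna1 (-1.54, and -2.45 in clone 4) and Efna4 (-0.81, and -1.14) lie below 0 in both fits, and Adam15 lies near 0.

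The promoters of the 4 genes with an unadjusted p under 0.05 are shown, since these carry the comparison. Each stretch holds 200 bases that begin 250 bases upstream of a RefSeq start site (GRCm38.p6), 5′ to 3′ on the strand of the gene, with CG dinucleotides in capitals. They lie at chr3:89279696-89279895 (Efna1, minus strand), chr3:89338079-89338278 (Efna4, minus strand), chr16:21204545-21204744 (Ephb3, plus strand) and chr5:137349859-137350058 (Ephb4, plus strand). The Efna1 stretch belongs to the downstream of its 2 annotated start sites and lies inside the gene but in no exon. The Efna4 stretch lies inside the antisense gene 4731419I09Rik, in no exon, and the Ephb3 and Ephb4 stretches overlap no annotated gene.
Efna1: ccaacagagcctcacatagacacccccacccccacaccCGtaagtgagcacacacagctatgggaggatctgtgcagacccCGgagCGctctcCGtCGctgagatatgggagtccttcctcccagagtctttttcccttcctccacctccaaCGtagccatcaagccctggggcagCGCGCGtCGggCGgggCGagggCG
Efna4: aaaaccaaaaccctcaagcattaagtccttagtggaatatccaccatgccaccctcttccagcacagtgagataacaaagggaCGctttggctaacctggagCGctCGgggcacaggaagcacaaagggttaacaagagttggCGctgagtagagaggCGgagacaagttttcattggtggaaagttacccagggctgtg
Ephb3: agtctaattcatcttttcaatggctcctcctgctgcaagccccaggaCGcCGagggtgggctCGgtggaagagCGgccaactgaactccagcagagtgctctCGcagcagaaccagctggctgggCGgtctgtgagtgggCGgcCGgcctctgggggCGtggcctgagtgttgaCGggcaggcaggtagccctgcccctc
Ephb4: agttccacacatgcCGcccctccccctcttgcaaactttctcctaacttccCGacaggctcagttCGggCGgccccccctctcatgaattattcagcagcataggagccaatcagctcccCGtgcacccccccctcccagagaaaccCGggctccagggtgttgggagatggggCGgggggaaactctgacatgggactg

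The Efna1 stretch held 13 CG dinucleotides, Ephb3 10, Ephb4 7 and Efna4 5. RefSeq gave 11 promoter windows of 300 bases (250 before to 50 after the start) for the 10 genes. Their GC content was 54.7% to 72.3%, against a median of 52.7% for 32851 windows of all genes. Their ratio of observed to expected CG dinucleotides was 0.46 to 0.904, against a median of 0.384. Letters of binding motifs of factors downstream of ERK were searched on both strands: CCGGAAG for ETS factors, TGANTCA for AP-1 and the CArG box of SRF, which do not overlap each other by their letters. None of the 11 windows held any of the 3, and 8.86%, 7.81% and 1.63% of all windows held ETS, AP-1 and CArG letters. This says only that these letters are not in these windows.

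The B-type ligands differed less over all libraries. Efnb1 (ENSMUSG00000031217, chromosome X, 99136130 to 99148991, plus strand) encodes an ephrin whose loss in a mosaic of cells, by X inactivation, is known to disturb sorting. It had 17.0, 19.0 and 2.51 CPM in vehicle clone4_1, clone4_2 and clone8_1, and 7.38, 8.62, 16.3 and 11.3 CPM in tamoxifen clone4_1, clone4_2, clone8_1 and clone8_2. Vehicle clone8_1 held the lowest value of the 7 libraries and the other 2 vehicle libraries the highest. The log2 fold change was -0.23 ± 0.56 (SE; adjusted p = 0.939, edgeR) over all libraries, and without vehicle clone8_1 it was -0.73 (unadjusted p = 0.0546, edgeR). It was -1.18 ± 0.28 (SE; unadjusted p = 0.00422, adjusted p = 0.55, edgeR) within clone 4. Efnb2 (ENSMUSG00000001300, chromosome 8, 8617434 to 8661242, minus strand), the arterial partner of EphB4, had 39.6, 43.7 and 31.9 CPM in the vehicle libraries and 43.1, 22.3, 54.1 and 26.8 CPM in the tamoxifen libraries, in the same orders. Its tamoxifen values spanned those of vehicle on both sides, and the log2 fold change was -0.07 ± 0.30 (SE; adjusted p = 0.967, edgeR).

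The change with tamoxifen differed between the clones for Efna1 and Efnb1 when the clone-by-condition interaction was tested. The difference, clone 8 minus clone 4, was 2.79 ± 0.52 (log2, SE) for Efna1 (adjusted p = 0.0273, edgeR) and 3.63 ± 0.57 (log2, SE) for Efnb1 (adjusted p = 0.0122, edgeR). These 2 of 10 compare with 3.16% of all genes at an adjusted p under 0.05, and the same 2 of 10 with 14.8% at an unadjusted p under 0.05. In clone 8, Efnb1 went from 2.51 CPM in the single vehicle library to a tamoxifen mean of 13.8 CPM, and in clone 4 from 18.0 to 8.00 CPM. The test rests on vehicle clone8_1, and with 1 such library a difference between clones and a peculiarity of that library cannot be told apart. Leaving out tamoxifen clone4_1 gave an adjusted p of 0.149 for Efna1 and 0.0896 for Efnb1, and leaving out tamoxifen clone4_2 gave 0.151 and 0.0932. For Efna1 it was 0.0919 without vehicle clone4_1 and 0.0614 without vehicle clone4_2.

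Markers of cell types were also compared between the groups. None of them had an adjusted p under 0.05 (edgeR), and the trophectoderm sums of the groups overlapped. The 10 trophectoderm markers summed to 11220, 8525 and 9016 CPM in vehicle clone4_1, clone4_2 and clone8_1, and to 7932, 6561, 9528 and 6541 CPM in tamoxifen clone4_1, clone4_2, clone8_1 and clone8_2. All 10 had a negative log2 fold change over all libraries (median -0.33), of which 3 had an unadjusted p under 0.05 and 2 had groups that did not overlap, beside 3.28% and 4.74% of all genes. Within clone 4, where Efna1, Efna4 and Efnb1 had lower means with tamoxifen, 6 of the 10 were lower at an unadjusted p under 0.05, beside 4.33% of all genes. None of the 10 was near 0: the lowest, Krt7, had at least 238 counts in each library. The primitive endoderm sum overlapped between groups, at 844 to 1147 CPM and 883 to 1030 CPM, with 6 of 9 tested genes higher and 3 lower. Of these, 2 had an unadjusted p under 0.05 over all libraries and groups that did not overlap, both higher. Over all genes, 2.69% were higher at that threshold and 3.71% were higher without overlap. At that threshold 0 of the primitive endoderm markers were lower. Sox17, an endoderm transcription factor, had means of 2.95 CPM with vehicle and 17.7 CPM with tamoxifen. Its log2 difference was 2.58 ± 0.75 (SE, with unadjusted p = 0.00617 and adjusted p = 0.794 in edgeR). Lama1, a laminin chain of the basement membrane, had means of 4.21 CPM with vehicle and 10.8 CPM with tamoxifen. Its log2 difference was 1.35 ± 0.36 (SE, with unadjusted p = 0.00394 and adjusted p = 0.794 in edgeR). Within clone 4, 4 of 10 primitive endoderm markers were higher at an unadjusted p under 0.05, beside 3.54% of all genes. Of the naive epiblast markers, 7 of 9 tested had a positive log2 fold change over all libraries. Of these, 1 had an unadjusted p under 0.05, beside 2.69% of all genes higher. Within clone 4 there were 2 of 10 so called, both higher, beside 3.54% of all genes. The part of cell composition in the values of the receptors and ligands was not tested.

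Of the 12 other Eph and ephrin genes, 7 were tested, and edgeR gave 0 of them an unadjusted or adjusted p under 0.05 over all libraries. In the fit within clone 4, 1 of 8 tested, Epha3, was higher at an unadjusted p under 0.05 (0.0107, edgeR), beside 3.54% of all genes. It had 0 counts in both clone 4 vehicle libraries and 14 and 15 in the clone 4 tamoxifen libraries. In clone 8 it had 9 counts in the vehicle library and 0 and 9 in tamoxifen clone8_1 and clone8_2. Epha3 was too low to be tested over all libraries. The median log2 fold change of the 7 genes over all libraries was 0.16. Efna2, an A-type ligand, had 11.6 to 21.8 CPM over the libraries. Ephb6, a receptor without kinase activity, ranged from 5.03 to 17.5 CPM and Epha7 from 1.52 to 23.6 CPM, with the lowest Epha7 values in vehicle clone4_1 and tamoxifen clone8_1. Epha10, which also lacks kinase activity, had 1.92 to 4.73 CPM. Efna5, an A-type ligand, had 1 to 19 counts per library. Epha8 had 0 counts in every library, Epha5, Epha6 and Ephb1 had at most 3 counts in any library, and Epha3 at most 15. Efnb3, the third B-type ligand, had 0.049 to 1.87 CPM and a log2 fold change of 1.70 ± 0.99 (SE; adjusted p = 0.798, edgeR).

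Genes that act with Eph receptors and ephrins were grouped in 3 lists, and none of them had an adjusted p under 0.05 in edgeR. Of 28 genes of forward signalling, 27 were tested, and 2 were higher and 1 lower at an unadjusted p under 0.05 (edgeR), with a median log2 fold change of 0.03. Abl1, a cytoplasmic tyrosine kinase, had 16.8, 18.5 and 25.3 CPM with vehicle and 29.0, 33.0, 26.8 and 28.9 CPM with tamoxifen (log2 fold change 0.54 ± 0.21, SE). Anks1 encodes an adaptor that binds Eph receptors. Its mean was 5.69 ± 1.08 CPM (SD, n = 3) with vehicle and 11.3 ± 4.66 CPM (SD, n = 4) with tamoxifen, and its log2 fold change was 0.99 ± 0.35 (SE). Cbl, a ubiquitin ligase that marks tyrosine kinase receptors for degradation, was the lower gene. Its mean was 44.9 ± 5.49 CPM (SD, n = 3) with vehicle and 28.4 ± 7.29 CPM (SD, n = 4) with tamoxifen, and its log2 fold change was -0.66 ± 0.23 (SE). In this list, Abl1 and Anks1 were the 2 genes with every tamoxifen library above every vehicle library, beside 3.71% of all genes. Cbl was among 3 genes with every tamoxifen library below every vehicle library, beside 4.74% of all genes. The rest of these 3 had an unadjusted p above 0.05 (edgeR). Abl1, Anks1 and Cbl each had an adjusted p of 0.794 (edgeR).

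Of 12 partners of B-type ephrins in reverse signalling, 9 were tested. Pdzk1, a PDZ scaffold protein, was the 1 with an unadjusted p under 0.05 (edgeR), with a mean of 21.6 ± 1.24 CPM (SD, n = 3) in vehicle, a mean of 14.3 ± 1.50 CPM (SD, n = 4) in tamoxifen and a log2 fold change of -0.60 ± 0.20 (SE; adjusted p = 0.794). Of 13 proteases and phosphatases of the pathway, 11 were tested and 0 had an unadjusted p under 0.05 over all libraries, with 8 lower and 3 higher (median log2 fold change -0.10). Within clone 4, Adam17, Psenen and Ptprf, of the shedding and dephosphorylation list, were lower at an unadjusted p under 0.05. Adam17, a sheddase, had 64.3 CPM with vehicle and 45.5 CPM with tamoxifen on average over all libraries. These counts can be read against the shares over all genes. At an unadjusted p under 0.05 these were 5.97% (2.69% higher, 3.28% lower), and 7.87% (3.54% higher, 4.33% lower) within clone 4.

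**Figure D5:**
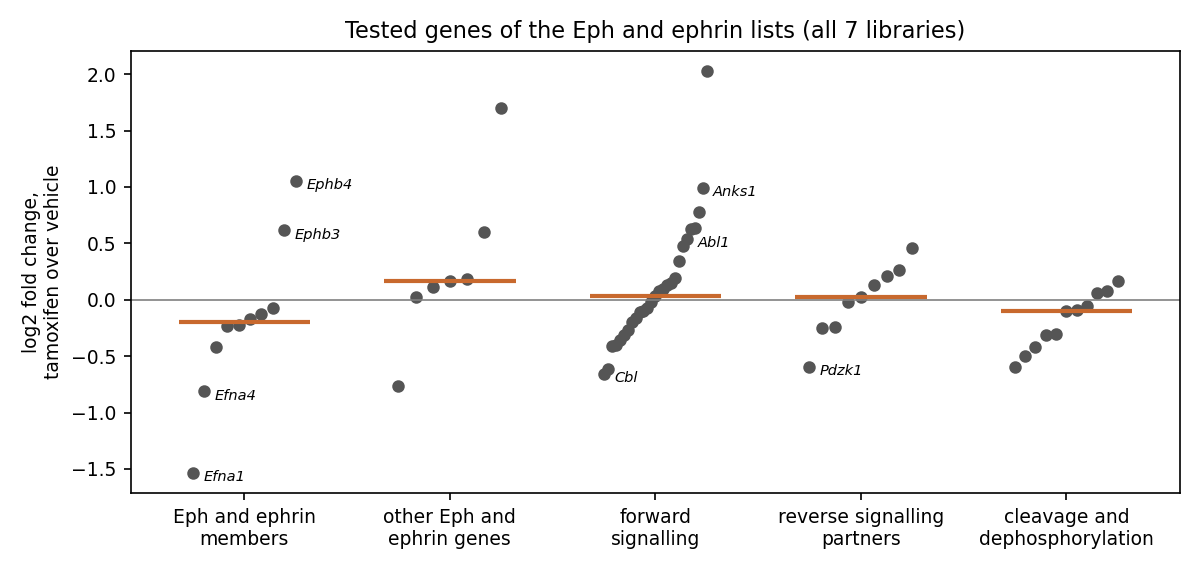
Log2 fold change, tamoxifen over vehicle, of each tested gene (points, sorted within a list) in the 10 members and 4 lists, all 7 libraries, with the list median as an orange line. Genes with an unadjusted p under 0.05 are named. The medians are -0.20, 0.16, 0.03, 0.02 and -0.10 from left to right, and Ephb4 and Efna1 lie farthest from 0 among the members.

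The genes whose profile over the 7 libraries was most like that of Epha4, among 8051 genes of at least 10 CPM, were Pgam1 (Pearson r of log2 CPM 0.996), Oaz2 (0.984) and Mesd (0.978). For Epha2 they were Plekho2 (0.976), Slc6a13 (0.968) and Sh3d21 (0.963). With 7 libraries, the highest of so many values are given as a description only.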

How the data were processed

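RNA-seq libraries of pooled ICMs were made with the NEBNext Single Cell/Low Input kit, per the labels' protocols. The authors deposited raw, unnormalized counts for each Ensembl gene. Per the submitters' processing notes, bcl2fastq 2.19.1 and STAR 2.5.3a were used with build mm10; the counting program, annotation release, strand setting and duplicate handling are not given in the sources used here. Without molecular identifiers, amplified reads are not independent molecules.

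Symbols, positions and lengths came from GENCODE M21 (GRCm38), which matched 52489 of 52636 genes by ID. The typical length is the median over a gene's basic transcripts, protein-coding ones first. Counts were tested with edgeR 4.0.16 (R 4.3.3): TMM factors, filterByExpr, and quasi-likelihood fits with a single term for condition, over all genes, with Benjamini-Hochberg adjustment. Further fits covered clone 4 alone and the interaction of clone and condition. SE is the absolute log2 fold change divided by the root of F. Likeness used log2 CPM with a prior count of 2. Alternatives included DESeq2 1.42.0 and limma 3.58.1 (voom). The fit for condition over all libraries was also run on simulated counts, which varied less between libraries than these data. The clone 4 and interaction fits were not run on simulated counts. The members and lists were chosen with earlier results of these data known. Named genes were the 10 members, the rest of the family, genes of the 3 pathway lists with an unadjusted p under 0.05, and the 3 closest profiles to Epha2 and Epha4. Genes around the chromosome 3 cluster, Spry2, Sox7, Sox17, Lama1 and Krt7 were picked after their values were seen.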

Additional observations from a re-analysis of the deposited data

Results flagged for a closer look

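The change with tamoxifen differed between the clones for 2 genes in the interaction test of edgeR's quasi-likelihood fit. For Efna1 the log2 difference, clone 8 minus clone 4, was 2.79 (adjusted p = 0.0273). For Efnb1 it was 3.63 (adjusted p = 0.0122). Clone 8 had 1 vehicle library, and neither gene's value there can be checked against another pool. No member had a tamoxifen library beyond Dixon's limit of 0.829 for 4 samples; groups of 3 cannot be screened this way.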

How the results depend on the processing

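Of 170 fold changes of the members over all libraries under 17 alternatives, 161 kept their direction and 0 passed the threshold. Leaving out 1 library in turn gave -0.73 to 0.16 for Efnb1, -0.32 to 0.10 for Efnb2, -0.28 to 0.20 for Epha4 and -0.42 to 0.012 for Ephb2, so their directions are not fixed. Efnb1 was 0.20 with limma voom and Epha4 was 0.31 without both clone8_1 libraries; the cause was not tested. Members with an unadjusted p under 0.05 numbered 2 to 4 when 1 library was left out. They were 2 without vehicle clone4_1 (Efna1 and Ephb4), without vehicle clone4_2 (Efna1 and Ephb4) and without tamoxifen clone8_2 (Efna1 and Ephb4). DESeq2 called 4 of all genes and the fit without both clone8_1 libraries 2, none of them members.

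Libraries with the same number came from different embryos, and their deviations correlated at 0.008, 0.021 and -0.068, so the number does not pair them, and not every library correlated best with its own number. With the number as a replicate block, 1 member (Ephb4) had an unadjusted p under 0.05.

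Within clone 4, 0 genes were called, against 217 without a low-count filter and 0 to 309 when 1 library was left out, where the lone library is assumed to vary like the pair. Efna1 was called there without the filter (-2.45), without vehicle clone4_1 (-2.39) and without vehicle clone4_2 (-2.50), and not without tamoxifen clone4_1 (-2.36) or tamoxifen clone4_2 (-2.54). Members with an unadjusted p under 0.05 numbered 2 to 4. Leaving out 1 library gave -0.91 to 0.038 for Efnb2, -0.070 to 0.13 for Epha1 and -0.91 to 0.15 for Epha2.

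The interaction was called in 514 genes, in 991 without the filter and in 52 to 695 when 1 library was left out, with 2 to 5 members at an unadjusted p under 0.05. It ranged from 2.44 to 3.08 for Efna1, from 3.35 to 3.88 for Efnb1 and from -0.49 to 0.55 for Epha2, which was -0.012 with RLE factors. The mean level of Ephb2 was 0.524 RPKM by its longest transcript.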
